A study of Homo sapiens with 8 samples.

Results

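HCT-8 cells cultured in medium taken from the 5-FU-resistant cells HCT-8/FU were compared with HCT-8 cells in unconditioned medium. HCT-8, an established line of human colon cancer cells, responds to 5-fluorouracil (5-FU), a drug that blocks the synthesis of thymidylate, and HCT-8/FU is a resistant line of the same background. The comparison takes 4 of the 8 mRNA-seq libraries of the study: HCT-8 replicates 1 and 2 (unconditioned medium) and CM of HCT-8/FU replicates 1 and 2, where CM, or conditioned medium, is medium in which HCT-8/FU cells had grown for 48 h. The recipient cells were HCT-8 in both groups, and all cells were kept with 10% fetal bovine serum and 1% penicillin-streptomycin. The sample descriptions name Ham's F12 as the medium, whereas the methods of the study name another medium. The sources used here state neither how long the recipient cells stayed in CM nor whether the replicates were separate cultures, so the p-values measure the spread between these libraries, which may be technical. Values in CM of HCT-8 (2 libraries of HCT-8 cells grown in medium conditioned by HCT-8 itself) are given beside the main results, because the unconditioned group differs from CM of HCT-8/FU both in being unconditioned and in the source of the medium. Of 64253 genes in the count tables, 20305 had enough counts to be tested.

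Gene counts came to 8055150 and 34881349 in the HCT-8 libraries. In CM of HCT-8/FU they were 30050758 and 29634718. HCT-8 replicate 1 stood apart, with 25.1% of its records not aligned, against 3.58% to 4.09% in the other 3 libraries. The summed level of 14 markers of colon epithelium lay between 9912 and 10124 CPM in the 4 libraries. CPM are counts scaled to a common library size after normalization. All 14 were detected in each library, and 16 markers of fibroblasts, endothelium and blood cells summed to between 18.4 and 22.5 CPM, with 7 to 9 of the 16 detected. Base composition also differed: across 19857 genes the log2 fold change of the comparison was lower for genes of higher GC content (Spearman correlation −0.142, a description over genes that share the same libraries). The trend was −0.398 for the difference between the CM sources and 0.301 for CM of HCT-8 with unconditioned cells. Where a count is given after the correction, each library was corrected for GC content and gene length. Of the CM of HCT-8 libraries, replicate 1 had 9350753 gene counts with 29.6% of records not aligned, and this group had the largest spread between replicates of the 3 (median chi-square over genes 2.06, against 1.28 for the HCT-8 pair and 1.03 for the CM of HCT-8/FU pair).

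As background, cells answer unfolded protein in the endoplasmic reticulum (ER) through sensors that raise the transcription of ER chaperones, and they answer shortage of amino acids, unfolded protein and other insults through phosphorylation of the translation factor eIF2-alpha, which favours the transcription factor ATF4. ATF4 and its partner DDIT3 (CHOP) then switch on genes of amino acid synthesis and transport. Dividing cells turn on the genes of DNA replication through E2F factors. Genes of mitosis are controlled, down as well as up, through the DREAM and MuvB complexes, which are recruited to a short promoter element named CHR. Colon epithelium is renewed by Wnt-driven stem cells at the base of the crypt. All of these programmes hold genes that changed in the comparison.

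The promoters of some genes named below are shown for the elements that these programmes are known to use. Each line gives the 200 bases before the RefSeq start of the gene (GRCh38.p14), 5′ to 3′ on the strand of the gene, with the element in capitals. The first 3 belong to ER stress genes that fell in CM of HCT-8/FU, and their capitals mark the ER stress elements ERSE (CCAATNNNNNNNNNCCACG, in HSPA5 and XBP1) and ERSE-II (ATTGGNCCACG, in HERPUD1). ASNS carries the amino acid response element TGATGNAA, HMMR, MKI67 and KIF23 carry CHR (TTTGAA), and IFIT1 carries the interferon element GAAANNGAAA on the opposite strand.
HSPA5: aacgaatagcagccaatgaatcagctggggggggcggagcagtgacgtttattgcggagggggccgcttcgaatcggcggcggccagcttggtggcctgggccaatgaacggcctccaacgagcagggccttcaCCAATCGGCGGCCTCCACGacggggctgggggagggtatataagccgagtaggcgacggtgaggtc
XBP1: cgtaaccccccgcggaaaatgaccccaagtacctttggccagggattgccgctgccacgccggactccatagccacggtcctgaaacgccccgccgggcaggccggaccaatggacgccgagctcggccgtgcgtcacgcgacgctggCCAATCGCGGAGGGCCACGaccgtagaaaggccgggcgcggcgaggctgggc
HERPUD1: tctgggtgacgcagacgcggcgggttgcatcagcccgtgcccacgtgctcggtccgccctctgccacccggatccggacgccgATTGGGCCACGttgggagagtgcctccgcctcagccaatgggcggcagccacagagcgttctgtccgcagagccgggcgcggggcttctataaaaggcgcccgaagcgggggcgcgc
ASNS: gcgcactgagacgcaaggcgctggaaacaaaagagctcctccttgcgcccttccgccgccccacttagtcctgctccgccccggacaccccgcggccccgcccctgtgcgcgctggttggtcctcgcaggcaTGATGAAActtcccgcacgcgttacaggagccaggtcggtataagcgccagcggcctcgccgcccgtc
HMMR: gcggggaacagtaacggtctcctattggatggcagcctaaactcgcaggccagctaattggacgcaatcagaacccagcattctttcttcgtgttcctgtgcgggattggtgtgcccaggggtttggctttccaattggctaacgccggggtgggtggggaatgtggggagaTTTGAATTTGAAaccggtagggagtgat
MKI67: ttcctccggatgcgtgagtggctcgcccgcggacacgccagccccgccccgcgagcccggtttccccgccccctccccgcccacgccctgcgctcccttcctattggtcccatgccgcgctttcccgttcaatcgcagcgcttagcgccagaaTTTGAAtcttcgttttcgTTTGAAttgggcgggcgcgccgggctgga
KIF23: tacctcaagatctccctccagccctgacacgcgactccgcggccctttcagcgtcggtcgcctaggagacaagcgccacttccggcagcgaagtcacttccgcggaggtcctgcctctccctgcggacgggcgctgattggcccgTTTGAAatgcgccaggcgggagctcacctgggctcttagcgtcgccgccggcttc
IFIT1: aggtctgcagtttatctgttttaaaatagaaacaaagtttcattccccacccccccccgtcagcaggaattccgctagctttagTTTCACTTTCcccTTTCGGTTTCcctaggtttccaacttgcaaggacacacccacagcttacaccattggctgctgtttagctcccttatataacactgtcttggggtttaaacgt
They lie at chr9:125241344-125241543 (minus strand), chr22:28800570-28800769 (minus), chr16:56931942-56932141 (plus), chr7:97872409-97872608 (minus), chr5:163460432-163460631 (plus), chr10:128126424-128126623 (minus), chr15:69414149-69414348 (plus) and chr10:89392423-89392622 (plus), each ending at the base before the RefSeq start.

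The elements were searched on both strands in windows of 300 bases (250 before to 50 after the start) of the 12326 tested genes matched by symbol. CHR stood in 26 of 35 matched mitosis genes and in 9.87% of all promoters. The interferon element stood in 20 of 31 interferon-stimulated genes, against 2.65% of all promoters. ERSE stood in 6 of 19 ER chaperone genes and in 14 promoters in all, or 0.114%, and ERSE-II in 3 of 19 and in 0.0892% of all. Of the 6 chaperone genes with ERSE only 2 fell, HSPA5 and XBP1, while HSP90B1, CALR, CANX and CRELD2 were not called. Of the 3 with ERSE-II, 2 fell. The amino acid response element was found in 7 of 28 genes of the integrated stress response and in 1.73% of all, and the E2F element TTTCCCGC in 10 of 37 replication genes and in 2.51% of all. Of the 1216 promoters with CHR, 12.9% belonged to genes that rose in CM of HCT-8/FU, against 8.14% of all 12326 promoters. The 1216 include the mitosis genes with CHR, of which 19 rose. For the E2F element the share that rose was 10.68%, and for the interferon element 10.74%. Of the 213 with the amino acid response element, 9.86% belonged to genes that fell, against 3.68% of all. Genes that fell held 4 of the 14 promoters with ERSE and 2 of the 11 with ERSE-II. A match of letters is a description and not evidence of binding.

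Differential expression (DE) needed an FDR of 0.05 or less together with a 1.5-fold change, that is a log2 fold change beyond 0.58 in size. Between CM of HCT-8/FU and HCT-8, 2120 of 20305 genes were DE (10.4%), of which 1454 were higher (7.16%) and 666 lower (3.28%) in CM of HCT-8/FU. The counts of called members in the gene lists below are to be read beside these shares. Of the higher genes, 474 changed at least 2-fold, and of the lower genes 156 did. The calls included 1687 protein-coding genes and 296 long noncoding RNAs. The higher genes had a median GC content of 41.5%, the lower genes 50.01% and all tested genes 49%. After the correction for GC content and length, 818 genes were higher and 972 lower, of which 806 and 627 had the same call without it. With CM of HCT-8 replicate 2 as the reference library of the normalization 1856 were higher and 430 lower. Leaving out HCT-8 replicate 1 gave 1224 higher and 552 lower genes.

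The higher and the lower genes are set beside CM of HCT-8 here, without the correction for GC content and length. In cells given CM of HCT-8/FU rather than CM of HCT-8, 1619 of all tested genes were higher (7.97%) and 259 lower (1.28%), and between CM of HCT-8 and unconditioned HCT-8, 783 were higher (3.86%) and 872 lower (4.29%) in CM. Among the 1454 genes that rose against HCT-8, the median log2 fold change was 0.83, and their median against CM of HCT-8 was 0.72. Among the 666 genes that fell against HCT-8, the median was −0.75, and their median against CM of HCT-8 was −0.20. These comparisons share libraries, so their values are set side by side without a test of overlap. The sets also differed in GC content, with medians of 41.5% for the higher and 50.01% for the lower genes. The difference between the CM sources had the steepest trend with GC content (Spearman correlation −0.398). How far base composition set these medians was not tested. The difference between the CM sources is the test of whether the origin of the medium changed a gene. Its 1878 calls became 982 after the correction for GC content and length.

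**Figure D1:**
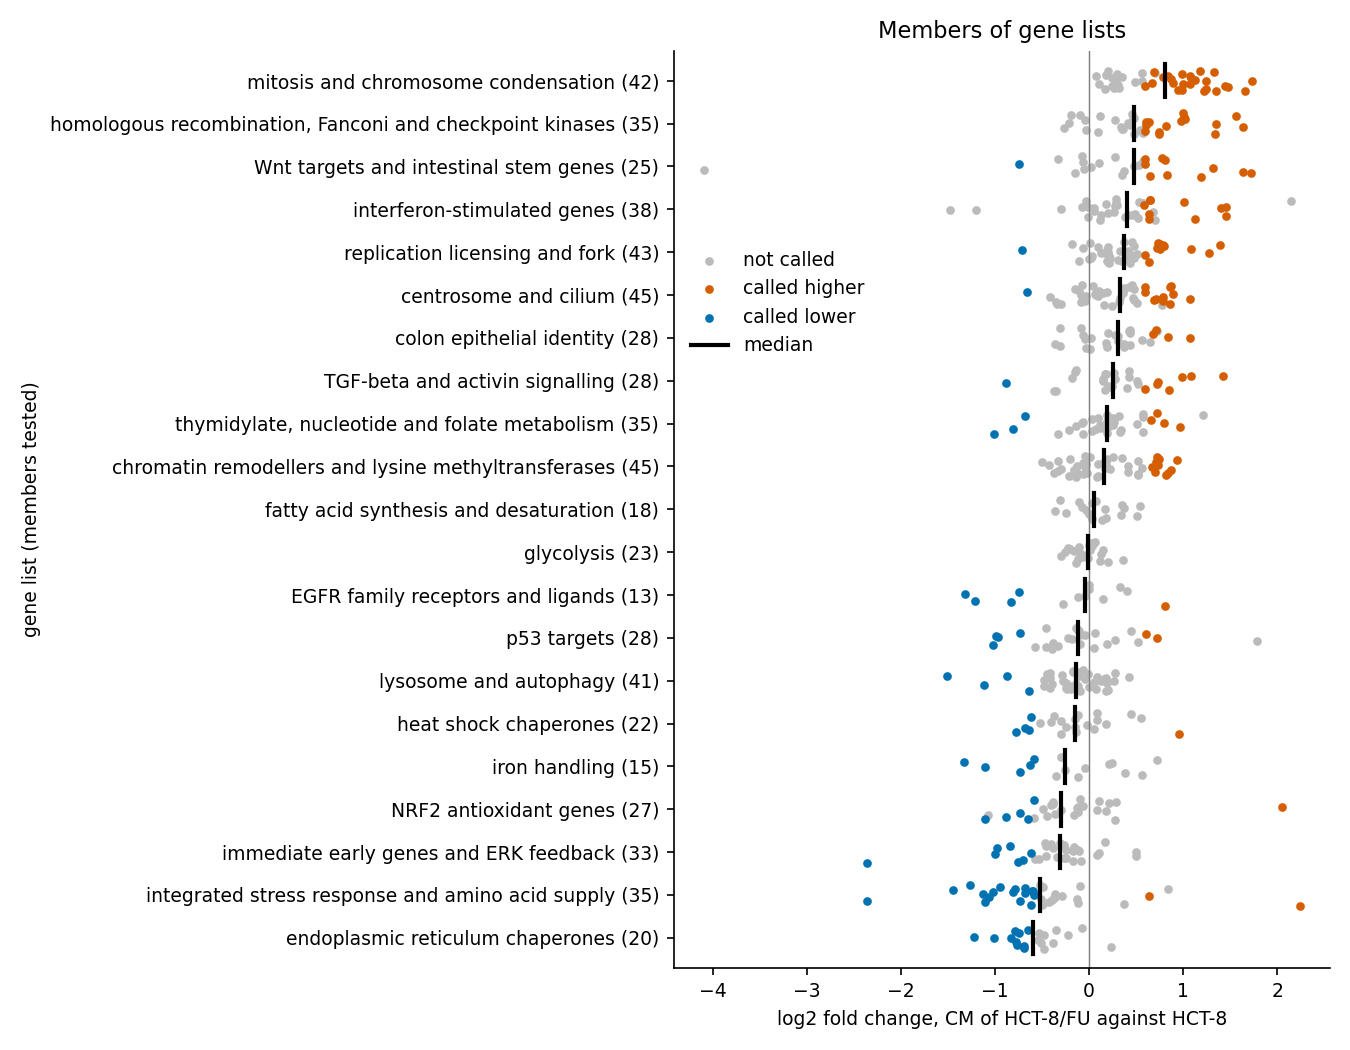
Log2 fold change of each tested member of 21 gene lists (horizontal axis, CM of HCT-8/FU against HCT-8, 2 libraries each), with lists ordered by their median (black bar) and the number of tested members in brackets. Mitosis genes lie farthest to the right (median 0.81) and ER chaperones farthest to the left (median −0.59), while glycolysis and fatty acid synthesis hold no called gene.

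Genes of ER chaperones and their partners were lower in CM of HCT-8/FU than in unconditioned HCT-8, or did not pass the test: 10 of 20 tested members fell, 0 rose and the median log2 fold change was −0.59, beside 0.02 over all tested genes. HSPA5 (BiP), the ER chaperone that keeps the stress sensors inactive and an abundant mRNA of these cells (chr9:125234853-125241382, minus strand), measured 12050 and 11478 CPM in HCT-8, 5052 and 5019 CPM in CM of HCT-8/FU and 5468 and 5351 CPM in CM of HCT-8. The HCT-8 libraries lay above all 4 libraries in CM, by 2.34-fold against CM of HCT-8/FU (log2 fold change −1.22 ± 0.06 SE, FDR 3.13e-08), and the CM sources were not called different (log2 −0.10, FDR 0.259). XBP1, a transcription factor of the unfolded protein response, was at 457 and 454 CPM in HCT-8, 273 and 271 CPM in CM of HCT-8/FU and 358 and 341 CPM in CM of HCT-8. It fell by 1.67-fold, and the level in CM of HCT-8 lay between the other groups. HERPUD1, a part of ER-associated degradation, was at 1191 and 1161 CPM in HCT-8 and 682 and 695 CPM in CM of HCT-8/FU (log2 −0.77 ± 0.08, FDR 6.52e-06). DNAJB9 and HYOU1, a co-chaperone and a chaperone of the ER lumen, had log2 fold changes of −0.83 and −0.76, both called.

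SELENOK, an ER membrane selenoprotein with the second lowest value of the list, was at 67.0 and 65.8 CPM in HCT-8 and 32.1 and 33.8 CPM in CM of HCT-8/FU, a 2.01-fold fall. MANF, a secreted ER stress factor, measured 436 and 343 CPM in HCT-8, 230.5 and 218 CPM in CM of HCT-8/FU and 490.2 and 313 CPM in CM of HCT-8, and here both CM of HCT-8 libraries lay above CM of HCT-8/FU (log2 −0.83 ± 0.15 between the CM sources, FDR 0.00122). HSP90B1 (GRP94), an abundant ER chaperone, was not called, with 5439 and 4852 CPM in HCT-8 and 4901 and 4851 CPM in CM of HCT-8/FU (log2 −0.08, FDR 0.633). DNAJC3, an ER co-chaperone, had the highest value of the list at 0.23 (FDR 0.0892) and was not called. Against CM of HCT-8 the list held 2 higher and 1 lower member and a median of −0.22. With the GC and length correction 14 members were lower.

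Genes of the integrated stress response and amino acid supply fell in part: 17 of 35 tested members fell and 2 rose, with a median log2 fold change of −0.52. ATF3, a stress-induced repressor and the most reduced member, measured 67.8 and 65.2 CPM in HCT-8, 14.2 and 11.7 CPM in CM of HCT-8/FU and 17.7 and 16.6 CPM in CM of HCT-8. The groups did not overlap, and the fall was 5.12-fold (log2 −2.36 ± 0.12, FDR 3.13e-08). DDIT3 (CHOP) was at 212 and 206 CPM in HCT-8 and 89.9 and 83.9 CPM in CM of HCT-8/FU, 2.40-fold lower (FDR 6.35e-07). PPP1R15A (GADD34), the subunit that directs the phosphatase to eIF2-alpha, was at 617 and 614 CPM in HCT-8, 229.8 and 222 CPM in CM of HCT-8/FU and 319 and 272 CPM in CM of HCT-8, a 2.73-fold fall. TRIB3, a pseudokinase induced by DDIT3, and DDIT4, an inhibitor of mTORC1, fell with log2 fold changes of −1.11 and −1.12.

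ASNS, which makes asparagine and whose promoter element is shown above, was at 548 and 503 CPM in HCT-8, 261 and 257 CPM in CM of HCT-8/FU and 299 and 322 CPM in CM of HCT-8. The HCT-8 libraries were 2.03-fold above CM of HCT-8/FU (log2 −1.02 ± 0.07, FDR 4.23e-07). WARS1, the cytosolic tryptophanyl-tRNA synthetase, was at 712 and 631 CPM in HCT-8 and 323 and 319 CPM in CM of HCT-8/FU (log2 −1.06). MTHFD2, a mitochondrial folate enzyme, was at 697 and 683 CPM in HCT-8 and 391 and 396 CPM in CM of HCT-8/FU (log2 −0.81). The mRNA of ATF4, which is controlled mainly in translation, was at 1130 and 1104 CPM in HCT-8, 801 and 795 CPM in CM of HCT-8/FU and 1226 and 1006 CPM in CM of HCT-8. Its log2 fold change of −0.48 (FDR 0.000506) was under the fold threshold. CEBPB, a partner of ATF4 and one of the 2 members that rose, was at 123 and 90.0 CPM in HCT-8 and 164 and 162 CPM in CM of HCT-8/FU (log2 0.64 ± 0.17, FDR 0.0144), and lost the call under DESeq2, under the correction and without HCT-8 replicate 2 (log2 0.40) or CM of HCT-8/FU replicate 1. The other was ALDH1L2, a low gene with a mean of 0.48 CPM over the 4 libraries (log2 2.24 ± 0.72, FDR 0.0342), which lost its call under the correction and when any one of the 4 libraries was left out, and to which DESeq2 gave no adjusted p. Against CM of HCT-8, 0 members were lower and 2 higher (median −0.19).

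**Figure D2:**
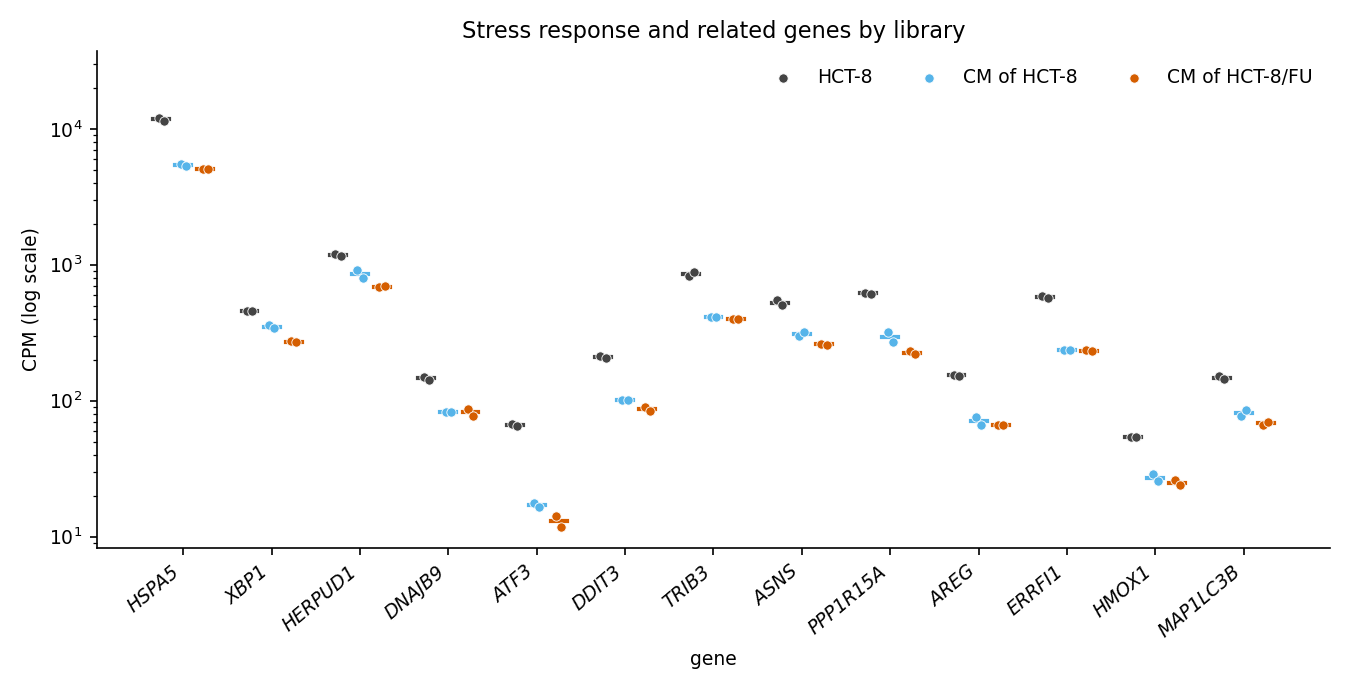
CPM in each library (log axis) of 13 genes of ER stress, the integrated stress response, EGFR signalling, haem breakdown and autophagy that fell in CM of HCT-8/FU; points are libraries and bars the means of 2 libraries. Both HCT-8 points lie above the points of both CM groups for each gene, for example 67.8 and 65.2 CPM against 14.2 and 11.7 CPM for ATF3.

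Other stress-related lists held fewer called members, most of them lower. Of the NRF2 antioxidant genes 5 of 27 fell and 1 rose, of the iron-handling genes 5 of 15 fell and 0 rose, and of the heat shock chaperones 4 of 22 fell and 1 rose. HMOX1, which breaks down haem and belongs to both of the first lists, was at 53.6 and 54.0 CPM in HCT-8, 25.9 and 24.0 CPM in CM of HCT-8/FU and 28.8 and 25.5 CPM in CM of HCT-8 (2.16-fold lower than in HCT-8, FDR 7.16e-06). NQO1, a classic NRF2 target, was at 1471 and 1265 CPM in HCT-8 and 977 and 975 CPM in CM of HCT-8/FU, and its log2 fold change of −0.49 was under the fold threshold. FTH1, the heavy chain of ferritin, was at 6544 and 6083 CPM in HCT-8 and 3803 and 3791 CPM in CM of HCT-8/FU (log2 −0.73 ± 0.07, FDR 6.10e-06). LCN2, a secreted binder of iron-carrying siderophores, was at 89 and 81.9 CPM in HCT-8, 35.0 and 32.8 CPM in CM of HCT-8/FU and 58.4 and 52.5 CPM in CM of HCT-8. It was the iron-handling gene with the lowest value (−1.33, FDR 2.00e-06), and CM of HCT-8 lay between the other groups.

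Of the chaperones, DNAJB1 and the mitochondrial HSPA9 fell with log2 fold changes of −0.78 and −0.68, whereas HSPA4L was at 10.3 and 10.97 CPM in HCT-8 and 22.9 and 18.8 CPM in CM of HCT-8/FU and rose by 1.94-fold (FDR 0.000181). SRXN1, which repairs oxidized peroxiredoxins, was at 5.53 and 2.40 CPM in HCT-8 and 13.7 and 14.2 CPM in CM of HCT-8/FU, the largest rise among the NRF2 genes (log2 2.05 ± 0.34, FDR 0.000416). Among lysosome and autophagy genes 4 of 41 fell and 0 rose. They included WIPI1 and MAP1LC3B, which act in autophagosome formation. WIPI1 was at 160.2 and 147 CPM in HCT-8, 54.5 and 53.3 CPM in CM of HCT-8/FU and 73.4 and 57.8 CPM in CM of HCT-8, a 2.85-fold fall against HCT-8. MAP1LC3B was at 151 and 144 CPM in HCT-8, 66.6 and 69.1 CPM in CM of HCT-8/FU and 76.8 and 85.2 CPM in CM of HCT-8, a 2.17-fold fall. For both genes all 4 CM libraries lay below both HCT-8 libraries. SQSTM1, the cargo receptor p62, was at 2236 and 2371 CPM in HCT-8 and 1494 and 1476 CPM in CM of HCT-8/FU (log2 −0.63 ± 0.06), near the threshold and no longer called with the other reference library of the normalization.

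Growth factor signalling genes fell in part. In the list of immediate early genes and ERK feedback, 7 of 33 fell and 0 rose. EGR1, an immediate early transcription factor, was at 55.7 and 59.1 CPM in HCT-8, 29.4 and 29.1 CPM in CM of HCT-8/FU and 37.9 and 31.4 CPM in CM of HCT-8 (log2 −0.98 ± 0.12 against HCT-8, FDR 3.28e-05). JUN and FOSB, subunits of AP-1, fell, JUN with a log2 fold change of −0.70 and FOSB by 2.00-fold. Both lost the call without HCT-8 replicate 2, and FOSB also without either library of CM of HCT-8/FU. FOS was at 31.5 and 31.0 CPM in HCT-8 and 22.3 and 23.2 CPM in CM of HCT-8/FU and under the fold threshold (log2 −0.46).

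In the list of EGFR family receptors and ligands, 4 of 13 fell and 1 rose. AREG (amphiregulin), a ligand of EGFR, was at 155 and 152 CPM in HCT-8, 65.9 and 66.2 CPM in CM of HCT-8/FU and 76.3 and 66.1 CPM in CM of HCT-8, 2.32-fold lower than in HCT-8 (FDR 4.23e-07). ERRFI1, a feedback inhibitor of EGFR, was at 593 and 568 CPM in HCT-8, 235 and 231 CPM in CM of HCT-8/FU and 237 and 238 CPM in CM of HCT-8, 2.49-fold lower (FDR 3.13e-08). For both genes the CM sources were not called different (log2 −0.10 and −0.03). HBEGF, a further ligand, fell with a log2 fold change of −0.83. EGFR itself was at 332 and 322 CPM in HCT-8, 269 and 272 CPM in CM of HCT-8/FU and 204 and 202 CPM in CM of HCT-8, with −0.27 against HCT-8, under the fold threshold, and −0.69 in CM of HCT-8 (FDR 9.75e-06). ADAM10, a protease that sheds ligands, was at 107 and 103 CPM in HCT-8, 185 and 183 CPM in CM of HCT-8/FU and 105 and 81.5 CPM in CM of HCT-8. It was the member that rose (0.81, FDR 3.41e-05), with 0.44 after the correction for GC content and length, where it lost the call.

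Genes of cell division rose in CM of HCT-8/FU against HCT-8. Of 42 tested genes of mitosis and chromosome condensation, 25 rose and 0 fell, and the median log2 fold change was 0.81. Against CM of HCT-8, 19 were higher and 0 lower (median 0.20). In CM of HCT-8 against HCT-8, 9 rose and 1 fell (median 0.29). The list was counted after the correction for GC content and length only in the comparison with HCT-8, given below. TOP2A, the topoisomerase that untangles replicated chromosomes (chr17:40388525-40417896, minus strand), was at 84.9 and 78.2 CPM in HCT-8, 268 and 273 CPM in CM of HCT-8/FU and 132 and 85.5 CPM in CM of HCT-8. Both libraries of CM of HCT-8/FU lay above the 4 others, 3.33-fold above HCT-8 (log2 1.74 ± 0.14, FDR 1.15e-06) and 1.34 ± 0.13 on the log2 scale above CM of HCT-8 (FDR 5.40e-06). CENPF, a kinetochore protein, was at 57.9 and 57.1 CPM in HCT-8, 182 and 180.4 CPM in CM of HCT-8/FU and 64.3 and 42.1 CPM in CM of HCT-8, 3.16-fold higher than in HCT-8 (FDR 2.43e-06). MKI67 (Ki-67), the usual histological mark of cycling cells, was at 86.0 and 84.2 CPM in HCT-8, 237 and 237 CPM in CM of HCT-8/FU and 119 and 78.8 CPM in CM of HCT-8 and rose by 2.79-fold (FDR 3.63e-06).

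HMMR and KIF23, a spindle protein and a motor of cytokinesis whose CHR elements are shown above, also rose. HMMR was at 8.95 and 8.22 CPM in HCT-8, 24.0 and 22.2 CPM in CM of HCT-8/FU and 13.6 and 7.46 CPM in CM of HCT-8. KIF23 was at 23.6 and 21.5 CPM in HCT-8, 48.0 and 45.3 CPM in CM of HCT-8/FU and 27.2 and 24.9 CPM in CM of HCT-8. Their log2 fold changes were 1.45 ± 0.21 and 1.07 ± 0.10 against HCT-8, and both differed from CM of HCT-8 (1.24 and 0.85). DLGAP5, a kinetochore fibre protein, and ESCO2, which acetylates cohesin, stood among the 12 largest rises, at 1.68 and 1.68. Not every mitotic gene was called. CCNB1 (cyclin B1) was at 40.3 and 40.3 CPM in HCT-8 and 44.4 and 48.0 CPM in CM of HCT-8/FU. Its log2 fold change was −0.11 against CM of HCT-8 and 0.20 against HCT-8 (FDR 0.184). UBE2C, which loads ubiquitin on mitotic substrates, had −0.17 against CM of HCT-8 and 0.10 against HCT-8 (FDR 0.459). After the correction for GC content and length 23 members were higher, and 20 were without HCT-8 replicate 2. Of the 26 mitosis genes with CHR in the promoter window, 19 rose.

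**Figure D3:**
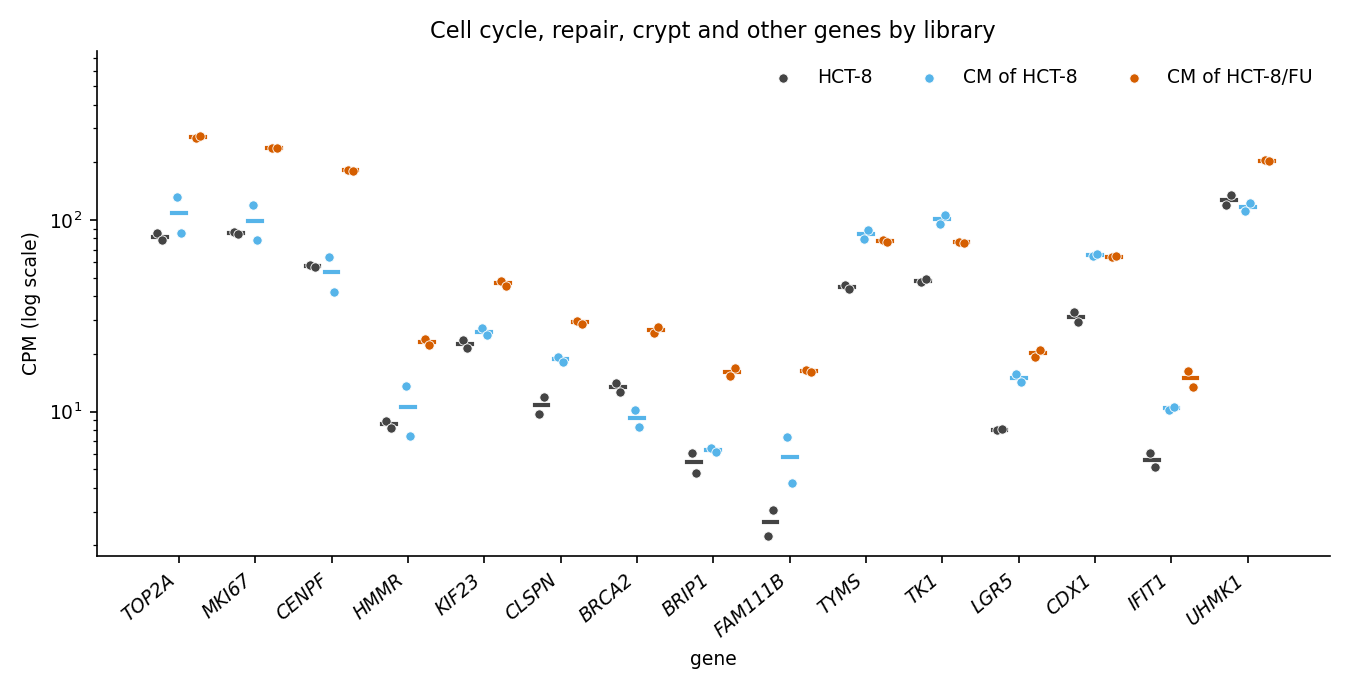
CPM in each library (log axis) of 15 genes that rose in CM of HCT-8/FU; points are libraries and bars the means of 2 libraries. TOP2A, MKI67, CENPF, BRCA2, BRIP1 and UHMK1 stand above both other groups in CM of HCT-8/FU, whereas TYMS, TK1 and CDX1 stand above HCT-8 in both CM groups.

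Genes of homologous recombination, the Fanconi pathway and checkpoint kinases rose in 15 of 35 cases with 0 lower (median 0.48), and 15 were higher than in CM of HCT-8, of which not all were the same genes. After the correction for GC content and length 7 were higher. BRCA2, a mediator of homologous recombination, was at 14.1 and 12.7 CPM in HCT-8, 25.6 and 27.7 CPM in CM of HCT-8/FU and 10.1 and 8.29 CPM in CM of HCT-8. It was highest in CM of HCT-8/FU, by 2.02-fold against HCT-8 (FDR 0.000159). BRIP1, a helicase that binds BRCA1, was at 6.06 and 4.79 CPM in HCT-8 and 15.4 and 16.9 CPM in CM of HCT-8/FU (log2 1.64 ± 0.18). BARD1, the ubiquitin ligase partner of BRCA1, was at 3.42 and 5.47 CPM in HCT-8 and 14.8 and 13.8 CPM in CM of HCT-8/FU (log2 1.57 ± 0.20). BRCA1 was at 30.5 and 24.1 CPM in HCT-8, 44.4 and 44.9 CPM in CM of HCT-8/FU and 24.9 and 21.4 CPM in CM of HCT-8 (log2 0.75, FDR 0.00026), and lost the call after the correction (log2 0.57) and without HCT-8 replicate 2 (log2 0.54). POLQ, the polymerase of an error-prone end joining pathway, was at 7.50 and 8.25 CPM in HCT-8, 25.1 and 27.1 CPM in CM of HCT-8/FU and 13.2 and 11.8 CPM in CM of HCT-8 and rose by 3.25-fold (FDR 6.74e-07).

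In the list of replication licensing and fork genes 11 of 43 rose and 1 fell (median 0.38). In CM of HCT-8, 17 members of this list rose against HCT-8. CLSPN, an adaptor of the replication checkpoint, was at 9.74 and 11.9 CPM in HCT-8, 29.8 and 28.7 CPM in CM of HCT-8/FU and 19.3 and 18.1 CPM in CM of HCT-8, 2.62-fold higher than in HCT-8 (FDR 2.50e-06). POLA1, the catalytic subunit of the primase polymerase, was at 7.11 and 8.66 CPM in HCT-8 and 19.6 and 19.8 CPM in CM of HCT-8/FU (log2 1.27 ± 0.16). MCM6 and MCM2, subunits of the replicative helicase, had log2 fold changes of 0.75 and 0.51. MCM6 was called and MCM2 was under the fold threshold, although MCM2 rose in CM of HCT-8 (0.84, FDR 7.13e-05). CDC6, a loader of that helicase, was at 153 and 154 CPM in HCT-8, 96.2 and 91.2 CPM in CM of HCT-8/FU and 108 and 110.2 CPM in CM of HCT-8 and was the one member that fell (log2 −0.71 ± 0.07, FDR 8.45e-06). FAM111B, which encodes a serine protease, was at 2.24 and 3.08 CPM in HCT-8, 16.4 and 16.1 CPM in CM of HCT-8/FU and 7.37 and 4.22 CPM in CM of HCT-8. It had the second largest rise among the leading genes (5.71-fold, FDR 4.64e-06).

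The list of thymidylate, nucleotide and folate metabolism, which holds the target and the activating enzymes of 5-FU, had 4 higher and 3 lower members of 35 tested. TYMS, thymidylate synthase and the enzyme that 5-FU blocks, was at 45.8 and 43.7 CPM in HCT-8, 78.1 and 76.2 CPM in CM of HCT-8/FU and 79.9 and 89.1 CPM in CM of HCT-8. Both CM groups lay above HCT-8, by 1.73-fold in CM of HCT-8/FU (log2 0.79 ± 0.09, FDR 2.74e-05), and they were not called different from each other (log2 −0.14, FDR 0.321). TK1, the thymidine kinase of the salvage pathway, was at 47.5 and 48.9 CPM in HCT-8, 77.1 and 75.3 CPM in CM of HCT-8/FU and 95.6 and 106 CPM in CM of HCT-8 (log2 0.66 against HCT-8), with the higher values in CM of HCT-8, and lost the call after the correction. RRM2, a subunit of ribonucleotide reductase, was at 62.1 and 52.9 CPM in HCT-8, 115 and 108 CPM in CM of HCT-8/FU and 136 and 143 CPM in CM of HCT-8 (1.96-fold, FDR 6.58e-05). UPP1, a uridine phosphorylase that can activate 5-FU, was at 44.2 and 48.5 CPM in HCT-8 and 24.1 and 22.1 CPM in CM of HCT-8/FU, a 2.02-fold fall (FDR 0.000277). DPYD, which degrades 5-FU, had too few counts to be tested. With the other reference library of the normalization 8 members were higher and 3 lower, and after the correction for GC content and length 2 and 3.

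The list of p53 targets had 4 lower and 2 higher members of 28 tested, against 5 and 0 after the correction for GC content and length and 5 and 1 without HCT-8 replicate 2. Of all tested genes 7.16% were higher and 3.28% lower, and the 2 higher members of 28 lay near that share. GDF15, a secreted stress cytokine, was at 1102 and 1207 CPM in HCT-8, 564 and 573 CPM in CM of HCT-8/FU and 615 and 621 CPM in CM of HCT-8, a 2.03-fold fall. TNFRSF10B, the death receptor DR5, was at 493 and 477 CPM in HCT-8, 246 and 244 CPM in CM of HCT-8/FU and 295 and 259 CPM in CM of HCT-8, a 1.98-fold fall. Both are also known as targets of the integrated stress response. CDKN1A (p21), the standard p53 target, was at 225 and 241 CPM in HCT-8 and 154 and 161 CPM in CM of HCT-8/FU, with a log2 fold change of −0.57 that was just under the threshold. It was called by DESeq2, with DESeq2 size factors and without HCT-8 replicate 1 or replicate 2 of CM of HCT-8/FU. MDM2 was at 58.6 and 57.5 CPM in HCT-8 and 82.3 and 75.6 CPM in CM of HCT-8/FU (0.45, also not called). RRM2B, the p53-induced subunit of ribonucleotide reductase, was at 23.2 and 22.3 CPM in HCT-8 and 36.8 and 37.7 CPM in CM of HCT-8/FU and rose by 1.65-fold (FDR 0.000498), a call that was lost after the correction.

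**Figure D4:**
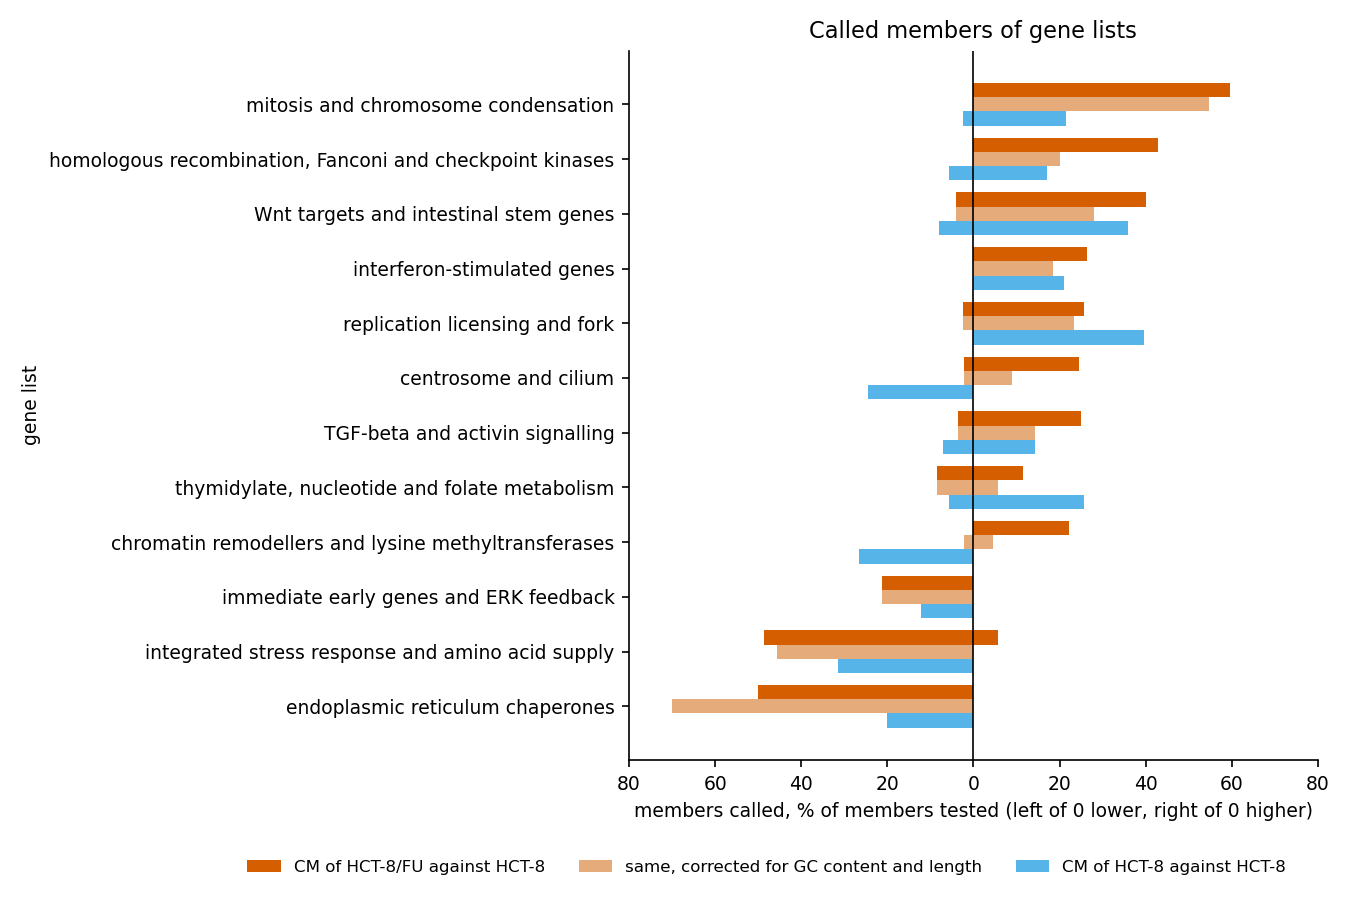
Share of the tested members of 12 gene lists called higher (right of 0) or lower (left of 0) in CM of HCT-8/FU against HCT-8, in the same comparison after the correction for GC content and length, and in CM of HCT-8 against HCT-8. The centrosome and chromatin lists shrink after the correction (11 to 4 and 10 to 2 higher members), whereas the mitosis list goes from 25 to 23.

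Wnt targets and genes of intestinal stem cells rose in 10 of 25 tested cases and fell in 1 (median 0.48), and 7 rose after the correction. ASCL2, a transcription factor of crypt stem cells, was at 7.77 and 5.14 CPM in HCT-8, 19.3 and 18.1 CPM in CM of HCT-8/FU and 15.0 and 13.4 CPM in CM of HCT-8. LGR5, a receptor for R-spondins and the standard mark of these stem cells, was at 8.03 and 8.07 CPM in HCT-8, 19.3 and 20.9 CPM in CM of HCT-8/FU and 15.8 and 14.2 CPM in CM of HCT-8. Both CM groups lay above HCT-8 for either gene, and the rise in CM of HCT-8/FU was 3.11-fold for ASCL2 (FDR 2.12e-05) and 2.49-fold for LGR5 (FDR 8.98e-06). AXIN2, a feedback inhibitor induced by Wnt, was at 134 and 137 CPM in HCT-8, 206 and 204 CPM in CM of HCT-8/FU and 267 and 227 CPM in CM of HCT-8 (log2 0.60 ± 0.08 against HCT-8). TDGF1, a co-receptor of the TGF-beta family, was the member that fell (log2 −0.74). The CM groups differed in 2 higher and 0 lower members of the list (median −0.03).

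Genes of colon epithelial identity rose in 4 of 28 tested cases with 0 lower (median 0.31). In CM of HCT-8 against HCT-8, 8 rose and 0 fell (median 0.45). Between the CM sources 0 were higher and 0 lower (median −0.22). CDX1, a homeobox factor of the intestine, was at 32.9 and 29.2 CPM in HCT-8, 63.8 and 64.8 CPM in CM of HCT-8/FU and 64.8 and 66.1 CPM in CM of HCT-8, higher than in HCT-8 (log2 1.07 ± 0.10, FDR 4.46e-06) and not called different from CM of HCT-8 (log2 −0.03). VIL1 (villin), an actin bundler of microvilli, was at 159 and 150.1 CPM in HCT-8 and 247 and 248 CPM in CM of HCT-8/FU (log2 0.68 ± 0.07). DPP4, a brush border peptidase, was at 48.7 and 46.0 CPM in HCT-8 and 82.9 and 85.6 CPM in CM of HCT-8/FU (log2 0.84 ± 0.09). CDX2 was at 71.1 and 80.2 CPM in HCT-8 and 95.7 and 102 CPM in CM of HCT-8/FU and under the fold threshold (0.38), as were CDH1 (E-cadherin, −0.36) and LGALS4 (−0.31). Outside this list, HPGD, which inactivates prostaglandins, and EHF, an epithelial ETS factor, stood among the 12 largest rises. HPGD was at 14.0 and 11.03 CPM in HCT-8, 42.0 and 37.9 CPM in CM of HCT-8/FU and 25.8 and 22.6 CPM in CM of HCT-8. EHF was at 2.90 and 2.78 CPM in HCT-8, 13.0 and 12.6 CPM in CM of HCT-8/FU and 7.83 and 7.65 CPM in CM of HCT-8. In both the level in CM of HCT-8 lay between the other groups, and both also differed between the CM sources (0.74 and 0.73 on the log2 scale, FDR 0.000333 and 0.00647). ESRP1, a splicing regulator of epithelial cells, was at 64.8 and 63.8 CPM in HCT-8, 34.3 and 27.3 CPM in CM of HCT-8/FU and 24.4 and 28.6 CPM in CM of HCT-8 and fell by 2.08-fold (FDR 1.46e-05).

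In TGF-beta and activin signalling 7 of 28 rose and 1 fell, and 4 rose after the correction. SMAD6, an inhibitor of BMP signalling, was at 7.11 and 6.03 CPM in HCT-8 and 17.0 and 17.2 CPM in CM of HCT-8/FU (log2 1.42 ± 0.16). ID1, a target of BMP signalling, was at 23.3 and 20.8 CPM in HCT-8 and 44.5 and 48 CPM in CM of HCT-8/FU (log2 1.09 ± 0.15). PMEPA1, a TGF-beta target that restrains the pathway, fell with a log2 fold change of −0.88. In the list of MET, HGF processing and MACC1, 3 of 11 rose and 0 fell. MACC1, a transcriptional regulator linked to MET in colon cancer, was at 1.05 and 1.77 CPM in HCT-8, 6.54 and 6.81 CPM in CM of HCT-8/FU and 2.42 and 3.09 CPM in CM of HCT-8, low in HCT-8 and 4.23-fold higher in CM of HCT-8/FU (FDR 6.47e-05). GAB1, an adaptor of MET, and TMPRSS4, a membrane serine protease, rose with log2 fold changes of 1.02 and 1.14.

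Interferon-stimulated genes rose in 10 of 38 tested cases and fell in 0 (median 0.40), and 7 rose after the correction. In CM of HCT-8 against HCT-8, 8 members rose and 0 fell (median 0.36). Between the CM sources, 4 members were higher and 2 lower in CM of HCT-8/FU (median −0.13). IFIT1, which binds viral RNA and whose interferon elements are shown above, was at 6.06 and 5.14 CPM in HCT-8, 16.4 and 13.5 CPM in CM of HCT-8/FU and 10.2 and 10.6 CPM in CM of HCT-8. The groups did not overlap, and the rise over HCT-8 was 2.74-fold (log2 1.46 ± 0.17, FDR 2.85e-05). IFIH1 (MDA5), a sensor of double-stranded RNA, was at 4.34 and 3.93 CPM in HCT-8, 10.5 and 11.03 CPM in CM of HCT-8/FU and 6.67 and 4.67 CPM in CM of HCT-8, 2.64-fold higher (FDR 0.000186), and also higher than in CM of HCT-8 (0.98, FDR 0.00281). ISG15, a ubiquitin-like protein, was at 51.6 and 59.7 CPM in HCT-8 and 66.9 and 68.4 CPM in CM of HCT-8/FU. This difference was not called (log2 0.27, FDR 0.087). In CM of HCT-8 it was at 71.1 and 89.8 CPM, above both other groups. ERAP2, a peptidase that trims peptides for HLA class I, was at 35.0 and 32.4 CPM in HCT-8 and 80.1 and 84.5 CPM in CM of HCT-8/FU. It rose by 2.46-fold (FDR 7.55e-07) and was at 58.4 and 48.7 CPM in CM of HCT-8. It has the highest value in the list of HLA class I and antigen presentation, of which 1 of 19 tested members rose and 0 fell (median −0.03).

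UHMK1, a serine/threonine kinase that acts on splicing factors and the kinase at the centre of the study (chr1:162497251-162529631, plus strand), was at 119 and 135 CPM in HCT-8, 205 and 203 CPM in CM of HCT-8/FU and 111 and 122 CPM in CM of HCT-8. Both libraries of CM of HCT-8/FU lay above the other 4: the log2 fold change was 0.67 ± 0.08 against HCT-8 (FDR 2.98e-05) and 0.80 ± 0.08 against CM of HCT-8 (FDR 5.28e-06). After the correction for GC content and length the first value was 0.34 (FDR 0.0254), under the fold threshold. The value against CM of HCT-8 is given without the correction. That comparison had the steeper trend with GC content (Spearman correlation −0.398, against −0.142), and the GC content of UHMK1 is 37.45%. COIL, the gene of coilin, the scaffold of Cajal bodies, was at 23.3 and 17.9 CPM in HCT-8, 21.2 and 17.6 CPM in CM of HCT-8/FU and 20.3 and 22.3 CPM in CM of HCT-8 (log2 −0.04 ± 0.15, FDR 0.873). Of 36 tested Cajal body components 3 rose and 0 fell, against 4 and 1 when replicate 2 of CM of HCT-8/FU was left out and 1 and 1 after the correction. They included NPAT, which drives histone transcription and was at 12.4 and 13.4 CPM in HCT-8 and 23.5 and 25.7 CPM in CM of HCT-8/FU (log2 0.91 ± 0.13, FDR 0.000112). Of 33 SR splicing factors and their kinases 3 rose and 0 fell. Of that list, 0 were higher after the correction. Without the correction 7.16% of all tested genes were higher and 3.28% lower, and the rises in both lists lay near that share.

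Genes of the centrosome, of chromatin and of nuclear transport rose in part, and their counts were smaller after the correction for GC content and length. Among centrosome and cilium genes 11 of 45 rose and 1 fell, and among chromatin remodellers and lysine methyltransferases 10 of 45 rose and 0 fell. With the correction 4 and 2 were higher. Members of these lists that were lower in CM of HCT-8 than in HCT-8 numbered 11 and 12. CEP97, which restrains cilium formation, was at 9.22 and 11.7 CPM in HCT-8, 22.9 and 22.8 CPM in CM of HCT-8/FU and 7.83 and 7.91 CPM in CM of HCT-8. CEP152, which acts in centriole duplication, was at 11.8 and 12.7 CPM in HCT-8, 22.0 and 23.5 CPM in CM of HCT-8/FU and 8.63 and 9.68 CPM in CM of HCT-8. Both were called after the correction (log2 0.71 and 0.67). BPTF, a subunit of an ISWI remodeller, was at 43.3 and 50.3 CPM in HCT-8 and 88.4 and 92.8 CPM in CM of HCT-8/FU (log2 0.93, and 0.78 with the correction). BAZ1A, a subunit of another, was at 23.2 and 22.4 CPM in HCT-8 and 41.9 and 41.0 CPM in CM of HCT-8/FU (log2 0.87, and 0.64 with the correction). Of 46 nucleoporins, importins and exportins 7 rose and 1 fell, against 2 and 3 with the correction and 4 and 1 without HCT-8 replicate 2. NUP50, a nucleoporin, was at 137 and 150 CPM in HCT-8, 355 and 355 CPM in CM of HCT-8/FU and 287 and 247 CPM in CM of HCT-8 (2.46-fold, FDR 2.17e-07). XPO1, the main export receptor, was at 119 and 110.3 CPM in HCT-8 and 216 and 214 CPM in CM of HCT-8/FU (log2 0.91). Of all tested genes 7.16% were higher and 3.28% lower, or 818 and 972 of 20305 genes with the correction. Of 180 zinc finger genes named ZNF on chromosome 19, 21 rose, among them ZNF69 (1.15) and ZNF845 (1.10), and 5 fell. After the correction 8 of the 180 rose, near the share of all tested genes, and 8 fell. Leaving out replicate 1 of CM of HCT-8/FU, 12 rose and 4 fell, without replicate 2 of that group 12 and 3, and without HCT-8 replicate 1 14 and 3.

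Some lists had few or no calls. None of 23 glycolysis genes, 18 genes of fatty acid synthesis and 22 replication-dependent histone genes was called by edgeR's quasi-likelihood test with both thresholds, and DESeq2 called 0, 0 and 0 higher and 0, 0 and 0 lower. At an unadjusted p under 0.05 there were 6, 8 and 1 genes. Of 65 listed replication-dependent histone genes only 22 had enough counts to be tested, in libraries of mRNA captured on beads. The absence of calls therefore does not show that histone genes were unchanged. LDHA, which makes lactate, was at 333 and 290.5 CPM in HCT-8 and 321 and 309.7 CPM in CM of HCT-8/FU (log2 0.02). PKM, a pyruvate kinase, was at 1141 and 1046 CPM in HCT-8 and 1406 and 1407 CPM in CM of HCT-8/FU (log2 0.36, FDR 0.0118), and FASN, fatty acid synthase, at 356 and 378 CPM in HCT-8 and 474 and 479 CPM in CM of HCT-8/FU (log2 0.38, FDR 0.00264). Of the 78 cytosolic ribosomal protein genes, 27 were lower and 0 higher against CM of HCT-8 (median −0.47). In CM of HCT-8 against HCT-8, 0 were higher and 0 lower (median 0.10). Between CM of HCT-8/FU and HCT-8 they had a median of −0.38 with 3 lower and 0 higher, among them RPL39 (294 and 257 CPM in HCT-8 and 169 and 174 CPM in CM of HCT-8/FU, log2 −0.68). In that comparison 77 values were negative, and 73 genes had an unadjusted p under 0.05 by edgeR's quasi-likelihood test. Without HCT-8 replicate 2, 16 were lower, against 1 without HCT-8 replicate 1, 8 with the correction for GC content and length and 1 by DESeq2.

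The protein-coding genes with the largest changes were taken among the 1479 DE genes that averaged 5 CPM or more and had no overlap between the groups, 12 in each direction. Of the genes that fell, IL2RB, the beta chain of the interleukin-2 receptor (chr22:37118666-37175118, minus strand), led with 9.22 and 10.0 CPM in HCT-8, 1.38 and 0.84 CPM in CM of HCT-8/FU and 1.96 and 1.51 CPM in CM of HCT-8. It was 8.66-fold lower than in HCT-8 (log2 −3.11 ± 0.30, FDR 6.12e-06). TRPV6, a calcium channel of the intestine, was at 17.2 and 21.1 CPM in HCT-8, 4.17 and 4.35 CPM in CM of HCT-8/FU and 3.80 and 4.86 CPM in CM of HCT-8. CMKLR2, a chemerin receptor, was at 37.9 and 43.0 CPM in HCT-8, 11.4 and 11.3 CPM in CM of HCT-8/FU and 10.4 and 12.7 CPM in CM of HCT-8. In both the 4 CM libraries lay in 1 range below HCT-8. OSCAR, an immunoglobulin-like receptor, KLHDC7B, a kelch domain protein, and SLC22A15, an organic solute carrier, fell with log2 fold changes of −2.23, −1.88 and −1.52. SAT1, which acetylates polyamines, was at 597 and 567 CPM in HCT-8, 198 and 197 CPM in CM of HCT-8/FU and 241 and 216 CPM in CM of HCT-8 (2.95-fold lower, FDR 3.13e-08). LAMP3, a lysosomal membrane protein, was at 146 and 156 CPM in HCT-8, 53.2 and 53.5 CPM in CM of HCT-8/FU and 58.7 and 58.8 CPM in CM of HCT-8. PRPH, an intermediate filament gene, had a log2 fold change of −1.42. With ATF3, WIPI1 and PPP1R15A, these 12 genes had log2 fold changes of −1.06 or lower in CM of HCT-8 when set against HCT-8, and none of the 12 was called between the CM sources.

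Of the 12 genes that rose most, TXNDC5, an ER disulfide isomerase (chr6:7881517-7910788, minus strand), led with 3.03 and 2.69 CPM in HCT-8, 19.8 and 20.9 CPM in CM of HCT-8/FU and 9.32 and 2.75 CPM in CM of HCT-8 (log2 2.87 ± 0.36, FDR 5.52e-05). EEIG2 was at 7.64 and 7.04 CPM in HCT-8 and 24.5 and 25.4 CPM in CM of HCT-8/FU. C4orf48 was at 2.50 and 2.40 CPM in HCT-8 and 10.6 and 9.31 CPM in CM of HCT-8/FU. HES4, a repressor of the HES family, was at 21.2 and 12.1 CPM in HCT-8 and 48.2 and 50.8 CPM in CM of HCT-8/FU, with HCT-8 replicate 1 nearer to CM of HCT-8/FU than replicate 2. The others were FAM111B, EHF, SRXN1, HPGD, TOP2A, POLQ, ESCO2 and DLGAP5, described above. Of these 12, C4orf48, HES4 and SRXN1 were not called between the CM sources (log2 0.14, 0.17 and 0.67), and the other 9 were higher in CM of HCT-8/FU. In GENCODE 44, a newer annotation than that of the counting, some named genes overlap others in exonic bases, and their values are uncertain where the counting held the same overlaps: 90.7% of SRXN1, 61.0% of TXNDC5 and 49.3% of ASNS lie under another gene on the same strand, and 71.5% of PRPH, 63.2% of FTH1, 47.9% of TYMS, 44.2% of VIL1 and 31.6% of DDIT3 lie opposite exons of another gene.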

How the data were processed

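mRNA was captured on beads from 8 samples (HCT-8, HCT-8/FU, CM of HCT-8 and CM of HCT-8/FU, 2 each) and sequenced as read pairs on HiSeq X10. The authors used HISAT2 for alignment to GRCh38 and HTSeq with Ensembl gene models, and deposited unnormalized counts per gene and sample. The sources used here do not state the strand setting. Their tables of DESeq2 fold changes, standard errors and p-values were not used.

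Genes passing edgeR's filterByExpr were fitted with the quasi-likelihood test of edgeR 4.0.16 (R 4.3.3) on 4 group means over the 8 libraries, with TMM factors (HCT-8 replicate 2 as reference) and Benjamini-Hochberg adjustment. SEs are the log2 fold change over the square root of F. The script was tested on simulated data. The alternatives were DESeq2 1.42.0, another TMM reference, a fit of each library's counts to GC content and gene length, a replicate block, no filter and leaving out each library. Between HCT-8 and CM of HCT-8/FU, deviations from the group mean of libraries with the same replicate number had a correlation of −0.02. The other groups were not checked in this way, so a pairing by replicate number is not excluded. Replicate 1 had a high share of records not aligned in both HCT-8 (25.1%) and CM of HCT-8 (29.6%).

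Members and gene lists were chosen with earlier results of these data known. Genes were named as UHMK1 and COIL, the 12 largest changes each way, the first 3 genes of each list, and the 2 highest and 2 lowest members of each list with a mean of at least 5 CPM, of which the text gives a part. Chosen after their values were seen were XBP1, HERPUD1, HYOU1, MANF, DNAJB9, ATF4, DDIT3, ASNS, TRIB3, WARS1, ALDH1L2, FOS, EGR1, JUN, EGFR, HBEGF, NQO1, FTH1, SQSTM1, TK1, MCM2, MCM6, CCNB1, HMMR, MKI67, KIF23, CDKN1A, MDM2, BRCA1, BRCA2, AXIN2, CDX2, VIL1, MACC1, ISG15, LDHA and the genes named from symbol families and noncoding RNAs in the closing section. Promoters came from RefSeq. Some genes of the lists are not reported here. Precision is limited by 2 libraries a group and by 8055150 gene counts in the shallowest of the 4 libraries compared (5804124 in HCT-8/FU replicate 2, the shallowest of the fit).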

Additional observations from a re-analysis of the deposited data

How the results depend on the processing

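The 2120 DE genes between CM of HCT-8/FU and HCT-8 became 5017 at an FDR of 0.05 with no fold threshold (2632 higher and 2385 lower), the comparison of the CM sources then gave 4005 and that of CM of HCT-8 with unconditioned cells 3949 genes. The correction for GC content and length took the higher genes from 1454 to 818 and those 2 comparisons from 1878 to 982 and from 1655 to 1103. The correction together with the replicate block gave 775, 924 and 1048. The replicate block alone gave 2052 DE genes, 1399 higher and 653 lower, and changed no call of a gene named here. With CM of HCT-8 replicate 2 as TMM reference, 430 genes were lower and the median of all genes moved from 0.02 to 0.09. Leaving out 1 library gave 1536 to 1776 DE genes. COIL, with −0.04, was at 0.031 with the other TMM reference and between −0.27 and 0.11 when 1 library was left out. HSP90B1, with −0.08, lay between −0.17 and 0.0064 when 1 library was left out. LDHA was at −0.0744 with the GC and length correction, −0.0740 with the block added, and between −0.087 and 0.12 when 1 library was left out. Of 1928 log2 fold changes of named genes under alternatives, 1881 kept direction and call, 33 lost the call and 6 gained it. The causes of these moves were not tested. With 2 libraries a group and 8055150 counts in HCT-8 replicate 1, small changes of low genes were not detectable.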

Other observations

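Protein-coding genes that share a symbol stem were counted for 184 stems with at least 10 tested members, a grouping made after the values were seen. Genes named SEC, which hold subunits of the ER translocon and of the COPII coat, had 8 lower and 0 higher members of 26 (median log2 fold change −0.30). SEC61B, a translocon subunit, was at 113 and 114 CPM in HCT-8 and 77.5 and 73.1 CPM in CM of HCT-8/FU (log2 −0.59 ± 0.09). SEC24D, a cargo adaptor of COPII, was at 207 and 202 CPM in HCT-8, 113 and 118 CPM in CM of HCT-8/FU and 114 and 118 CPM in CM of HCT-8 (log2 −0.83 ± 0.08). SEC61A1 and SEC23B had log2 fold changes of −0.60 and −0.72. SEC61A1 and SEC61B lost the call with the other reference library of the normalization, and SEC61B also when replicate 2 of CM of HCT-8/FU was left out. GALNT genes, which start O-glycan chains in the Golgi, had 6 higher and 0 lower members of 13 (median 0.72). GALNT12 was at 11.2 and 9.99 CPM in HCT-8, 20.7 and 19.4 CPM in CM of HCT-8/FU and 25.6 and 21.6 CPM in CM of HCT-8 (log2 0.95 ± 0.13), and GALNT7 and GALNT1 had values of 0.82 and 0.79, which lost the call after the correction for GC content and length. Semaphorin genes had 4 higher and 0 lower of 16, with SEMA5A at 20.3 and 18.2 CPM in HCT-8, 50.4 and 49.4 CPM in CM of HCT-8/FU and 34.4 and 30.0 CPM in CM of HCT-8 (log2 1.40 ± 0.10) and SEMA3C at 1.33, the latter not called without HCT-8 replicate 2. Of all tested genes 7.16% were higher and 3.28% lower.

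Of 245 solute carriers 18 rose and 13 fell, beside 7.16% higher and 3.28% lower of all tested genes. After the correction for GC content and length 8 solute carriers rose and 16 fell. SLC12A2, a sodium, potassium and chloride cotransporter, was at 142 and 143 CPM in HCT-8, 358 and 358 CPM in CM of HCT-8/FU and 193 and 174 CPM in CM of HCT-8 (log2 1.33 ± 0.07), and SLC39A10, a zinc importer, at 19.4 and 17.0 CPM in HCT-8 and 45.4 and 37.7 CPM in CM of HCT-8/FU (log2 1.22 ± 0.12). SLC5A3, which imports inositol, and SLC26A2, a sulfate transporter, rose with log2 fold changes of 1.16 and 0.80, and the latter lost the call after the correction. SLC31A1, a copper importer, was at 206 and 200.1 CPM in HCT-8, 84.8 and 87.5 CPM in CM of HCT-8/FU and 87.6 and 102 CPM in CM of HCT-8 (log2 −1.24 ± 0.09), and SLC2A3, a glucose transporter, fell with a log2 fold change of −0.94. Of 29 snoRNA host genes and nuclear long noncoding RNAs 8 fell and 1 rose, against 5 and 0 without HCT-8 replicate 1 and 4 and 1 with the other reference library. Among other noncoding RNAs, KLF3-AS1 was at 5.92 and 3.40 CPM in HCT-8 and 15.7 and 13.7 CPM in CM of HCT-8/FU (log2 1.81 ± 0.26), MELTF-AS1 at 6.06 and 8.48 CPM in HCT-8 and 18.5 and 18.0 CPM in CM of HCT-8/FU (log2 1.25 ± 0.19) and LINC00342 at 3.42 and 2.90 CPM in HCT-8 and 8.08 and 7.04 CPM in CM of HCT-8/FU (2.47-fold, not called without HCT-8 replicate 2). TYMSOS, which overlaps TYMS on the opposite strand, was at 5.92 and 7.98 CPM in HCT-8, 17.1 and 18.3 CPM in CM of HCT-8/FU and 20.5 and 18.5 CPM in CM of HCT-8 (log2 1.27 ± 0.15).

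Of all tested genes 7.16% were higher and 3.28% lower, or 818 and 972 of 20305 genes after the correction for GC content and length. Of 22 hypoxia-induced genes 2 rose and 4 fell, against 1 and 5 after the correction. Of 18 genes of adherens junction and EMT 0 rose and 3 fell, the same as after the correction. Zinc finger genes named ZNF outside chromosome 19 had 38 higher and 9 lower of 225, and 17 and 9 after the correction for GC content and length. Without HCT-8 replicate 2 they had 19 and 8, leaving out replicate 1 of CM of HCT-8/FU 25 and 6, and without replicate 2 of that group 24 and 7.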
